A study of Mus musculus with 19 samples.

Results

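The genes described here are 32 genes of cholesterol and fatty acid synthesis in mouse tumours. They were chosen by name, as the rows of the count table whose symbol belongs to a list of pathway enzymes and their regulators, and all 32 were found among 46983 genes. All 32 also passed the filter on low counts, which kept 16763 genes. By role, 7 belong to the mevalonate arm of cholesterol synthesis, 11 to its sterol arm, 4 to its regulators, 5 to fatty acid synthesis, 4 to the fatty acid desaturases and 1, Stard4, to sterol transport within cells.

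RNA was sequenced from 19 samples of tumours that 4T1 cells, which derive from a mammary carcinoma of the mouse, had formed in BALB/cAnN hosts. Tumours with knockdown of lactate dehydrogenase A (LDHA-KD) came from cells labelled 4T1-KD, and control tumours from cells labelled 4T1-Sc. After implantation of 1000000 cells, the antibody was first given on day 3, for 3 doses at intervals of 3 days, and it was either anti-CTLA-4, which blocks an inhibitory receptor of T cells, or IgG as its control. The groups were LDHA-KD tumours with IgG (5 samples), control tumours with IgG (4 samples, replicates 1, 3, 4 and 5), LDHA-KD tumours given anti-CTLA-4 (5 samples) and control tumours with anti-CTLA-4 (5 samples). No group was left without antibody, and each tumour type came from 1 labelled line, so that the knockdown and any other difference between the lines cannot be told apart. No label says that the replicates of a group were separate animals, and p-values therefore measure the spread between these samples, which may be technical. Values in lists by group follow the replicate number.

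Cells build cholesterol from acetyl-CoA in a chain of steps. The mevalonate arm makes isoprenoid diphosphates, which also feed protein prenylation and other branches, and the sterol arm joins them to squalene, closes the ring system and trims it to cholesterol. Transcription of these enzymes is driven by the sterol regulatory element-binding proteins, encoded by Srebf1 and Srebf2, which are held in the endoplasmic reticulum by Scap and Insig proteins while sterol is plentiful and are released when it is scarce. Fatty acid synthesis starts from the same acetyl-CoA, and desaturases then place double bonds in the chains.

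Total gene counts per sample, in units of 1000000, ran from 31.8 to 43.3. Values are CPM, counts per 1000000 gene counts with TMM scaling, and a gene is called higher or lower where edgeR's quasi-likelihood F test, with Benjamini-Hochberg adjustment across the 16763 genes, gave a p under 0.05. Ldha, the targeted gene, had 452 to 519 CPM in LDHA-KD tumours and 1283 to 1926 CPM in control tumours with IgG, and 485 to 584 CPM in LDHA-KD against 1524 to 2244 CPM in control tumours under anti-CTLA-4, without overlap. On the second principal component of all genes, which held 17% of the variance, replicates 3 and 5 of both anti-CTLA-4 groups lay apart, and values without these 4 libraries are given where they change a call. The summed level of 6 epithelial tumour cell genes was 3060 to 3322 CPM in LDHA-KD and 3812 to 4860 CPM in control tumours under IgG, and 2028 to 3268 CPM in LDHA-KD against 3740 to 4378 CPM in control tumours under anti-CTLA-4, and none of the 6 was at 0.

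Transcripts of many cholesterol synthesis enzymes were lower in LDHA-KD than in control tumours, while the transcripts of the regulators showed no called difference. Under IgG, 11 of the 32 genes were called lower and 1 higher, where 17.5% of all genes tested were called lower and 16.8% higher. Under anti-CTLA-4, 14 were called lower and 2 higher, where 19.8% of all genes were called lower and 20.2% higher. In either direction, 37.5% of the 32 genes were called under IgG against 34.3% of all genes, and 50% against 40.0% under anti-CTLA-4, so that the share called was near the background under IgG and the calls lay mostly on the lower side. The median log2 fold change of LDHA-KD over control was -0.05 under IgG and -0.18 under anti-CTLA-4 over the 32 genes, and 0.00 and 0.01 over all genes tested. Scaled by library totals alone, the split was 10 lower and 3 higher under IgG, and 11 lower and 3 higher under anti-CTLA-4.

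All 11 genes called lower under IgG were among the 14 called lower under anti-CTLA-4, in libraries that the comparisons do not share. They were Acat2, Hmgcs1, Fdft1, Sqle, Cyp51, Msmo1, Ebp, Sc5d, Acss2, Scd2 and Fads2, and Idi1, Nsdhl and Scd1 were called lower under anti-CTLA-4 alone. The difference between the treatments was itself called for none of them. Dhcr7 was called higher under both treatments and Elovl6 under anti-CTLA-4. Both comparisons rest on the same fit and the same cell lines. Over all genes tested, 2938 were called lower under IgG, and 2351 of these were also called lower under anti-CTLA-4. Of all genes, 14.0% were called lower under both treatments and 14.2% higher under both. Of the 32 genes, 16 were called in neither comparison and 28 had the same sign in both. Every LDHA-KD library lay below every control library for 7 genes under IgG (15.2% of all genes) and for 9 under anti-CTLA-4 (11.6% of all genes), and 5 genes, Acat2, Cyp51, Ebp, Sc5d and Scd2, did so under both. Dhcr7 lay above in every library under both treatments, where 15.1% of all genes did so under IgG and 11.6% under anti-CTLA-4. The shares of all genes that lay below, or above, under both treatments were not computed, so the joint counts have no background here.

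**Figure D1:**
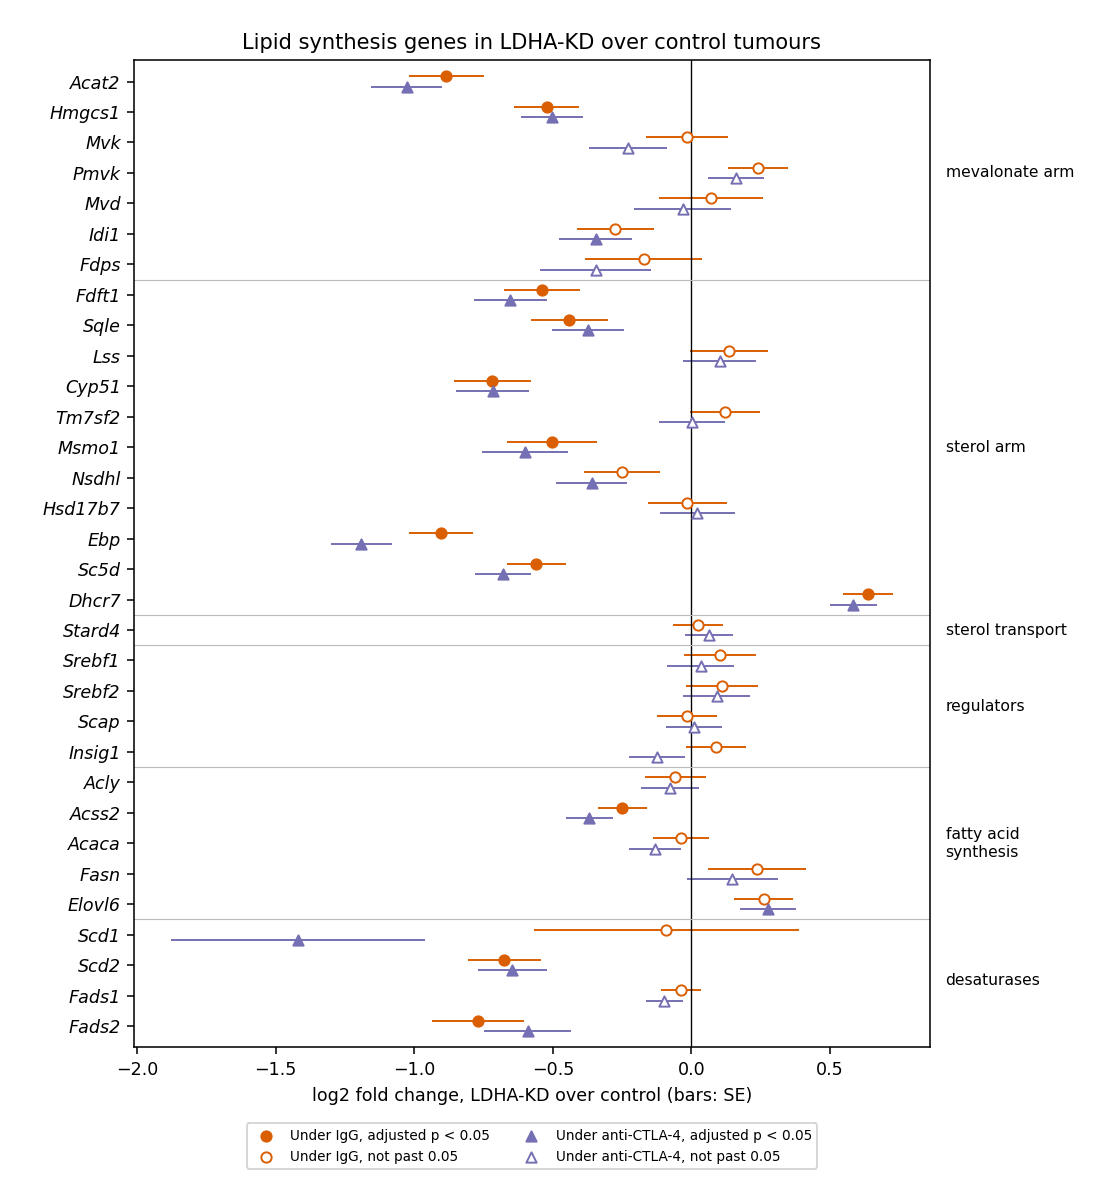
Log2 fold change of LDHA-KD over control tumours for each of the 32 genes, grouped by role, under IgG (circles) and under anti-CTLA-4 (triangles), with bars of 1 SE. Filled symbols passed an adjusted p of 0.05. The regulators sit near 0, Ebp and Acat2 lie farthest below 0 under IgG, and Dhcr7 is at 0.64 and 0.58.

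In bulk tumour RNA, fewer cells of a type and less RNA per cell cannot be told apart. The tumours differed in their markers of other cells in the same comparisons. Of 8 macrophage genes, 7 were called higher under IgG and all 8 under anti-CTLA-4, with summed levels of 3276 to 3685 CPM in LDHA-KD and 1322 to 2315 CPM in control tumours under IgG, and 3355 to 3823 CPM in LDHA-KD against 1584 to 2046 CPM in control tumours under anti-CTLA-4. All 6 T cell genes were called higher under both treatments, with sums of 44.4 to 65.3 CPM in LDHA-KD against 11.3 to 21.3 CPM in control tumours under IgG, and 58.8 to 105 CPM in LDHA-KD against 21.5 to 41.9 CPM in control tumours under anti-CTLA-4. All 6 proliferation genes were called lower under both treatments, with sums of 1407 to 1668 CPM in LDHA-KD against 1930 to 2042 CPM in control tumours under IgG, and 1065 to 1510 CPM in LDHA-KD against 1536 to 1945 CPM in control tumours under anti-CTLA-4. Of the 6 epithelial genes, 2 were called lower and 1 higher under IgG, and 4 lower and 1 higher under anti-CTLA-4. All 5 endothelial genes were called lower under IgG and 3 under anti-CTLA-4, with sums of 198 to 257 CPM in LDHA-KD against 312 to 414 CPM in control tumours under IgG, and 236 to 348 CPM in LDHA-KD against 335 to 371 CPM in control tumours under anti-CTLA-4. Of 7 fibroblast genes, 1 was called higher and 3 lower under IgG and 3 higher and 0 lower under anti-CTLA-4, and of 5 neutrophil genes 1 was called higher under IgG and 0 under anti-CTLA-4. The part of these shifts in the levels of the lipid synthesis genes was not tested.

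The promoters of 4 cholesterol enzymes are shown because 3 of them, Hmgcs1, Ebp and Sc5d, were called lower and the other, Dhcr7, higher under both treatments. Each runs from 250 bases before to 50 bases after a RefSeq transcript start on GRCm38.p6, and capitals mark matches to TCACNCCAC, the core of the sterol regulatory element, or to CCAAT, the box bound by the factor NF-Y, each on either strand, so that CCAAT also appears as ATTGG. Dhcr7 has 3 such windows, and the one shown is the one of the 3 that holds CCAAT.
Hmgcs1 (chr13:119690101-119690400, plus strand): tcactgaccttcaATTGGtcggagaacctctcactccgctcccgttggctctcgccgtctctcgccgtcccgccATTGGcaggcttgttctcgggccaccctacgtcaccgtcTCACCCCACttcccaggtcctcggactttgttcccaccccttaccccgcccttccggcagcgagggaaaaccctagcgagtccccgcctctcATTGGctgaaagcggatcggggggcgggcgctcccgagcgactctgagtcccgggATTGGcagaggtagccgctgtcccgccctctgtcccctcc
Ebp (chrX:8193463-8193762, minus strand): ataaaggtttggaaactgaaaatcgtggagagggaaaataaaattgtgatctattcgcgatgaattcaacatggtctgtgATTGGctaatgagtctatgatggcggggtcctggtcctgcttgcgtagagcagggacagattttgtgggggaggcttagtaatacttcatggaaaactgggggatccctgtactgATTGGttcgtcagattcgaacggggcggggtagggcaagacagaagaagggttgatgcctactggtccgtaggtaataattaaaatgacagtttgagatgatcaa
Sc5d (chr9:42264251-42264550, minus strand): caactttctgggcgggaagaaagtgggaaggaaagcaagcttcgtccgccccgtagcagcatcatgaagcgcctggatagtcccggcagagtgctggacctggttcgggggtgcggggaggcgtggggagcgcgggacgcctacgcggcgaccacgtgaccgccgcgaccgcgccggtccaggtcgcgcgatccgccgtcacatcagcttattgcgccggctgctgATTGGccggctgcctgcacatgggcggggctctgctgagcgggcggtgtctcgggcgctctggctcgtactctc
Dhcr7 (chr7:143829964-143830263, plus strand): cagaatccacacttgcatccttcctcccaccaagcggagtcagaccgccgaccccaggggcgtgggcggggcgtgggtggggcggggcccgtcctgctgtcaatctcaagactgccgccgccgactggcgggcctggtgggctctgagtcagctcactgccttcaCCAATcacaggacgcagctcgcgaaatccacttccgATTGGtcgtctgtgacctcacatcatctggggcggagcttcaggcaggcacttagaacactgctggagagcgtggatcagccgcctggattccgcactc
The Hmgcs1 window holds the core element 137 bases before the start, and 4 CCAAT matches. Ebp has 2 CCAAT matches, Sc5d has 1 and the Dhcr7 window has 2. Because the Dhcr7 window shown is the one with a match, these windows do not compare genes called lower with the gene called higher.

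RefSeq windows were matched for 25 of the 32 genes by symbol, and Scd1, Scd2, Stard4, Fdps, Fdft1, Fads1 and Sqle are named only. A gene can have several windows, and the 25 genes have 31. CCAAT was found in 21 of the 31 windows (67.7%), against 37.4% of all 32851 promoter windows of this length and 37.0% of the 14545 windows of genes tested. Counted by gene, a CCAAT window was found for 6 of the 8 genes called lower under both treatments and for 14 of the other 17. TCACNCCAC was found in 1 of the 31 windows (3.23%), that of Hmgcs1, against 1.24% of all windows, and its longer form, with an A before it, in 0 of 31, against 0.234%. GGGCGG, the box bound by Sp1, was found in 24 of the 31 windows (77.4%), against 35.7% of all windows and 58.4% of those of genes tested, and CACGTG, the E-box, in 6 (19.4%), against 7.15% and 9.36%. Counted by gene, GGGCGG was found for 21 of the 25 genes and CACGTG for 5, since overlapping windows of Scap hold the same E-box. The motifs were searched on both strands and chosen after values were seen, and a match describes letters, not binding.

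In the mevalonate arm, Acat2 and Hmgcs1, enzymes of its first steps, were lower in LDHA-KD tumours. The enzymes of the steps from mevalonate onward, apart from Idi1 under anti-CTLA-4, showed no called difference in the fit as described. Acat2 encodes the cytosolic thiolase that joins acetyl-CoA units (chr17:12942890-12960747, minus strand, coordinates here and below from GENCODE M21 on GRCm38). Under IgG it had 32.8, 27.7, 36.8, 30.2 and 31.9 CPM in LDHA-KD tumours, against 75.3, 64.3, 49.7 and 45.9 CPM in control tumours, and under anti-CTLA-4 31.4, 29.2, 26.5, 26.7 and 32.2 CPM in LDHA-KD tumours, against 69.9, 50, 69.2, 56.6 and 51.8 CPM in control tumours. The highest LDHA-KD library lay below the lowest control library in each comparison. The log2 fold change was -0.88 under IgG (adjusted p = 5.47e-05, SE 0.13) and -1.03 under anti-CTLA-4 (adjusted p = 6.06e-06, SE 0.13), so that LDHA-KD tumours held 0.542 and 0.491 of the control level. Acat3, a near copy of Acat2, and Tcp1, its neighbour, were also called lower, Acat3 at -0.88 and -0.76 and Tcp1 at -0.58 and -0.73 under IgG and anti-CTLA-4. Reads marked as not unique stayed out of the gene counts, and whether other reads were misplaced between the copies was not tested.

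Hmgcs1, the synthase of HMG-CoA (chr13:119690379-119708260, plus strand), had 128, 109, 147, 131 and 137 CPM in LDHA-KD tumours, against 226, 212, 169 and 143 CPM in control tumours under IgG. Under anti-CTLA-4 it had 126, 138, 125, 133 and 151 CPM in LDHA-KD tumours, against 198, 179, 207, 206 and 164 CPM in control tumours. The groups overlapped under IgG by 1 control library, replicate 5, and did not overlap under anti-CTLA-4. Its log2 fold change was -0.52 under IgG (adjusted p = 0.00190, SE 0.12) and -0.50 under anti-CTLA-4 (adjusted p = 0.00144, SE 0.11). Of the other 5 genes of this arm, Idi1, the isomerase of isopentenyl diphosphate, was called lower under anti-CTLA-4 at -0.35 (adjusted p = 0.0425, SE 0.13), and had -0.28 (adjusted p = 0.134, SE 0.14) under IgG. Idi1 ranged over 13.9 to 17 CPM in LDHA-KD tumours and 16.5 to 23.0 CPM in control tumours under anti-CTLA-4, with overlap. Its call was lost when any of 11 of the 19 libraries was left out, namely LDHA-KD IgG replicates 1 and 5, LDHA-KD anti-CTLA-4 replicates 1 to 5 and control anti-CTLA-4 replicates 1 to 4, with adjusted p from 0.0505 to 0.107, and it was 0.154 without the 4 libraries that lay apart.

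The kinases Mvk and Pmvk, the decarboxylase Mvd and the farnesyl diphosphate synthase Fdps were called in neither comparison. Mvk had -0.02 and -0.23 under IgG and anti-CTLA-4, with 95% intervals of -0.33 to 0.29 and -0.52 to 0.06 on the log2 scale. Pmvk had 0.24 and 0.16 (intervals 0.01 to 0.47 and -0.05 to 0.37). It was called higher under IgG without LDHA-KD IgG replicate 2, at 0.30 (adjusted p = 0.0400), and with library totals alone, at 0.31 (0.0309), and under anti-CTLA-4 with library totals alone, at 0.26 (0.0485). Mvd had 0.07 and -0.03 (intervals -0.32 to 0.46 and -0.40 to 0.34). Fdps had -0.17 and -0.35, with wide intervals of -0.61 to 0.27 and -0.76 to 0.07, which include decreases as large as that of Hmgcs1. Mvd overlaps the counted gene Gm20388 on the opposite strand by 9822 bases. Fdps overlaps the counted gene Gm43738 on the same strand by 7512 bases. How reads in these overlaps were assigned is not given in the sources used here. Mvk is placed next to Acat2 as a ratio of levels within each library, a measure that library scaling does not touch. Per kilobase of exon, Acat2 over Mvk was 2.11 ± 0.102 in LDHA-KD and 4.02 ± 1.32 in control tumours under IgG (SD, n = 5 and 4), and 2.16 ± 0.286 in LDHA-KD against 3.77 ± 0.496 in control tumours under anti-CTLA-4 (n = 5 each). Every LDHA-KD library had a lower ratio than every control library within each treatment. Acat2 by itself already lay lower in every LDHA-KD library, so the ratio is a description with no test and not separate support.

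In the sterol arm, 6 of 11 enzymes were called lower under IgG and 7 under anti-CTLA-4, and 1, Dhcr7, was called higher under both. Over all genes tested, 17.5% were called lower under IgG and 19.8% under anti-CTLA-4, and 14.2% were called higher under both. Ebp, the isomerase that moves the double bond of the sterol ring (chrX:8185329-8193512, minus strand), had 50.9, 45.8, 50.7, 35.1 and 50.7 CPM in LDHA-KD tumours, against 103, 87.6, 83.1 and 75.0 CPM in control tumours under IgG. Under anti-CTLA-4 it had 39.8, 46.6, 43.4, 45.9 and 41.4 CPM in LDHA-KD tumours, against 110.5, 79.1, 106, 96.6 and 103 CPM in control tumours. The highest LDHA-KD library of the study was at 50.9 CPM and the lowest control library at 75.0 CPM. The log2 fold change was -0.90 under IgG (adjusted p = 7.52e-06, SE 0.11) and -1.19 under anti-CTLA-4 (adjusted p = 1.42e-07, SE 0.11), which is 0.535 and 0.438 of the control level. Ebp had the smallest adjusted p of the 32 genes in both comparisons.

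Cyp51, the demethylase of lanosterol (chr5:4081145-4104746, minus strand), had 89.8, 71.0, 105, 102 and 91.8 CPM in LDHA-KD tumours, against 194, 167, 127 and 116 CPM in control tumours under IgG. With anti-CTLA-4, Cyp51 had 99.3, 95.5, 79.7, 89.4 and 94.7 CPM in LDHA-KD tumours, against 169.9, 129.9, 166, 161 and 127 CPM in control tumours. The groups did not overlap, and the control libraries spread more widely than the LDHA-KD libraries in both. Its log2 fold change was -0.72 under IgG (adjusted p = 0.000564, SE 0.14) and -0.72 under anti-CTLA-4 (adjusted p = 0.000314, SE 0.13). Fdft1, the squalene synthase that commits isoprenoids to sterols (chr14:63145150-63179578, minus strand), had 66.7, 56.4, 77.8, 55.4 and 69.7 CPM in LDHA-KD tumours, against 127, 101, 80.0 and 70.9 CPM in control tumours under IgG. With anti-CTLA-4, Fdft1 had 57.2, 61.5, 59.1, 62.1 and 66.5 CPM in LDHA-KD tumours, against 109, 82.6, 105, 97.7 and 88.1 CPM in control tumours. LDHA-KD replicate 3 lay above control replicate 5 under IgG, and the groups were separate under anti-CTLA-4. For Fdft1 the log2 fold change was -0.54 under IgG (adjusted p = 0.00483, SE 0.14) and -0.65 under anti-CTLA-4 (adjusted p = 0.000613, SE 0.13). Fdft1 overlaps Ctsb on the opposite strand by 774 bases, and Ctsb was not called, at 0.15 and 0.12.

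The last steps of the chain moved in opposite directions. Sc5d, the desaturase whose product Dhcr7 reduces to cholesterol (chr9:42251595-42264256, minus strand), had 53.5, 46.1, 57.1, 61.6 and 52.4 CPM in LDHA-KD tumours, against 94.5, 89.7, 70.9 and 63.9 CPM in control tumours under IgG. With anti-CTLA-4, Sc5d had 52.9, 59.1, 53.2, 53.2 and 58.0 CPM in LDHA-KD tumours, against 98.7, 75.8, 93.7, 91.4 and 83.1 CPM in control tumours. Each LDHA-KD library was below each control library, and the log2 fold change was -0.56 under IgG (adjusted p = 0.000525, SE 0.11) and -0.68 under anti-CTLA-4 (adjusted p = 4.28e-05, SE 0.10). Dhcr7, the reductase that finishes cholesterol (chr7:143823145-143848410, plus strand), had 54.9, 62.0, 57.5, 55.4 and 51.7 CPM in LDHA-KD tumours, against 31.4, 37.6, 41.2 and 34.5 CPM in control tumours under IgG. Under anti-CTLA-4 Dhcr7 had 49.8, 49.9, 43.1, 51.7 and 50.2 CPM in LDHA-KD tumours, against 29.5, 38.3, 32.9, 33.8 and 28.7 CPM in control tumours. All LDHA-KD libraries lay above all control libraries. The log2 fold change was 0.64 under IgG (adjusted p = 2.93e-05, SE 0.09) and 0.58 under anti-CTLA-4 (adjusted p = 3.24e-05, SE 0.09), or 1.56 and 1.5 times the control level.

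As a ratio of levels per kilobase of exon within each library, Sc5d over Dhcr7 was 1.16 ± 0.162 in LDHA-KD and 2.68 ± 0.699 in control tumours under IgG (SD, n = 5 and 4). Under anti-CTLA-4 it was 1.35 ± 0.101 in LDHA-KD and 3.29 ± 0.592 in control tumours (n = 5 each). The highest LDHA-KD ratio was 1.33 and the lowest control ratio 2.06 under IgG, while under anti-CTLA-4 the highest LDHA-KD ratio was 1.47 and the lowest control ratio 2.37. Ebp over Dhcr7 was 2.10 ± 0.359 in LDHA-KD against 6.17 ± 1.44 in control tumours under IgG, and 2.24 ± 0.209 in LDHA-KD against 7.81 ± 1.69 in control tumours under anti-CTLA-4. These ratios were chosen after the values were seen and are descriptions with no test.

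**Figure D2:**
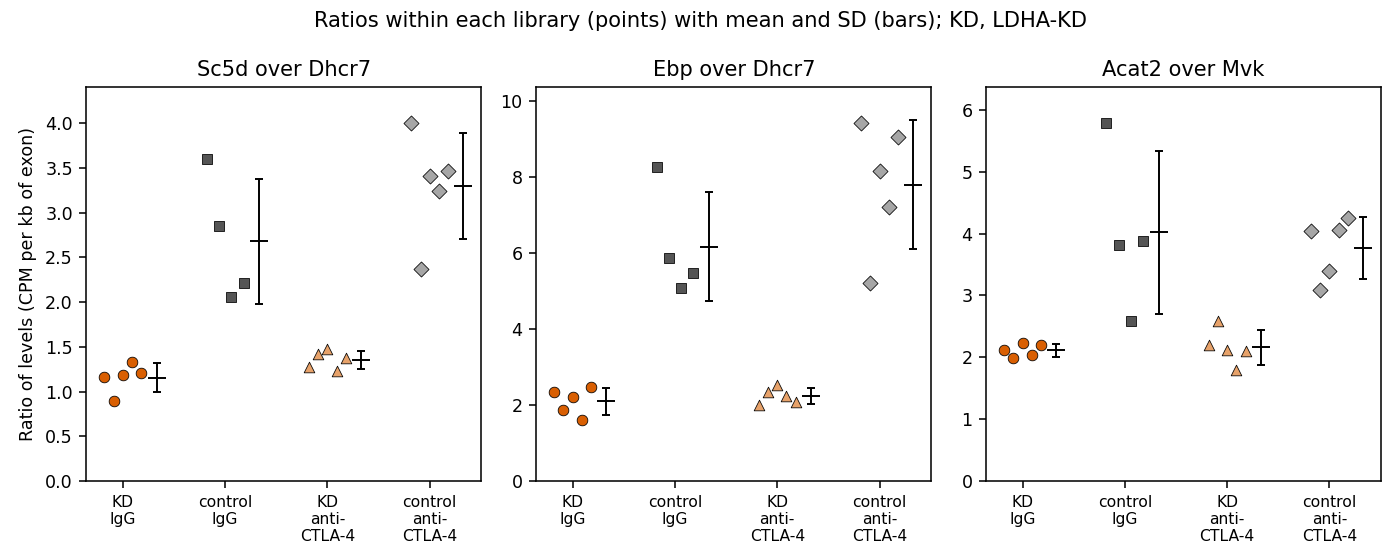
Ratios of levels (CPM per kilobase of exon) within each library for 3 pairs of genes, with points for libraries and bars for mean and SD, LDHA-KD left of control within each treatment. The LDHA-KD libraries lie below the control libraries in each panel, with Sc5d over Dhcr7 between 0.889 and 1.47 in LDHA-KD tumours and at 2.06 or more in control tumours.

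The calls of 3 further sterol enzymes were less stable. Sqle, the squalene epoxidase, had -0.44 under IgG (adjusted p = 0.0188, SE 0.14) and -0.37 under anti-CTLA-4 (adjusted p = 0.0297, SE 0.13), and its ranges overlapped, with 88.0 to 137 CPM in LDHA-KD tumours and 108 to 178 CPM in control tumours under IgG. Its call under IgG was lost without LDHA-KD IgG replicate 2 (adjusted p = 0.0539), control IgG replicate 1 (0.0784) or control IgG replicate 3 (0.0742). Under anti-CTLA-4 the Sqle call was lost without LDHA-KD anti-CTLA-4 replicate 1 (0.0689) or 4 (0.0601) or control anti-CTLA-4 replicate 1 (0.0750), 3 (0.0604) or 4 (0.0612). Msmo1, the methylsterol monooxygenase, had -0.50 under IgG (adjusted p = 0.0220, SE 0.16) and -0.60 under anti-CTLA-4 (adjusted p = 0.00448, SE 0.15), with overlap under IgG and none under anti-CTLA-4. Its call under IgG was lost without LDHA-KD IgG replicate 2 (adjusted p = 0.0616), control IgG replicate 1 (log2 fold change -0.29, adjusted p = 0.153) or control IgG replicate 3 (0.0540), and under anti-CTLA-4 without the 4 libraries that lay apart (0.0555). Nsdhl, a dehydrogenase of the demethylation steps, had -0.25 (adjusted p = 0.167, SE 0.14) under IgG, and passed there without control IgG replicate 5 at -0.38 (adjusted p = 0.0291). Under anti-CTLA-4 it had -0.36 (adjusted p = 0.0325, SE 0.13), and lost the call without LDHA-KD anti-CTLA-4 replicate 1 (0.0742) or 3 (0.0581), control anti-CTLA-4 replicate 1 (0.0786), 3 (0.0777) or 4 (0.0507), or the 4 libraries that lay apart (0.180).

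Lss, the cyclase that makes lanosterol, Tm7sf2, a sterol reductase, and Hsd17b7, a reductase of the demethylation steps, were called in neither comparison. Lss had 0.14 and 0.10 under IgG and anti-CTLA-4 (intervals -0.16 to 0.43 and -0.17 to 0.38), Tm7sf2 0.12 and 0.00, and Hsd17b7 -0.01 and 0.02. Hsd17b7 had intervals of -0.32 to 0.29 and -0.26 to 0.30. Stard4, which carries sterol between membranes, also had no call, with 0.02 and 0.06 (intervals -0.17 to 0.22 and -0.12 to 0.24). Along the chain, Lss stands between Sqle and Cyp51, which were both called lower. Lss overlaps the counted gene 4930483K19Rik on the opposite strand by 11268 bases.

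**Figure D3:**
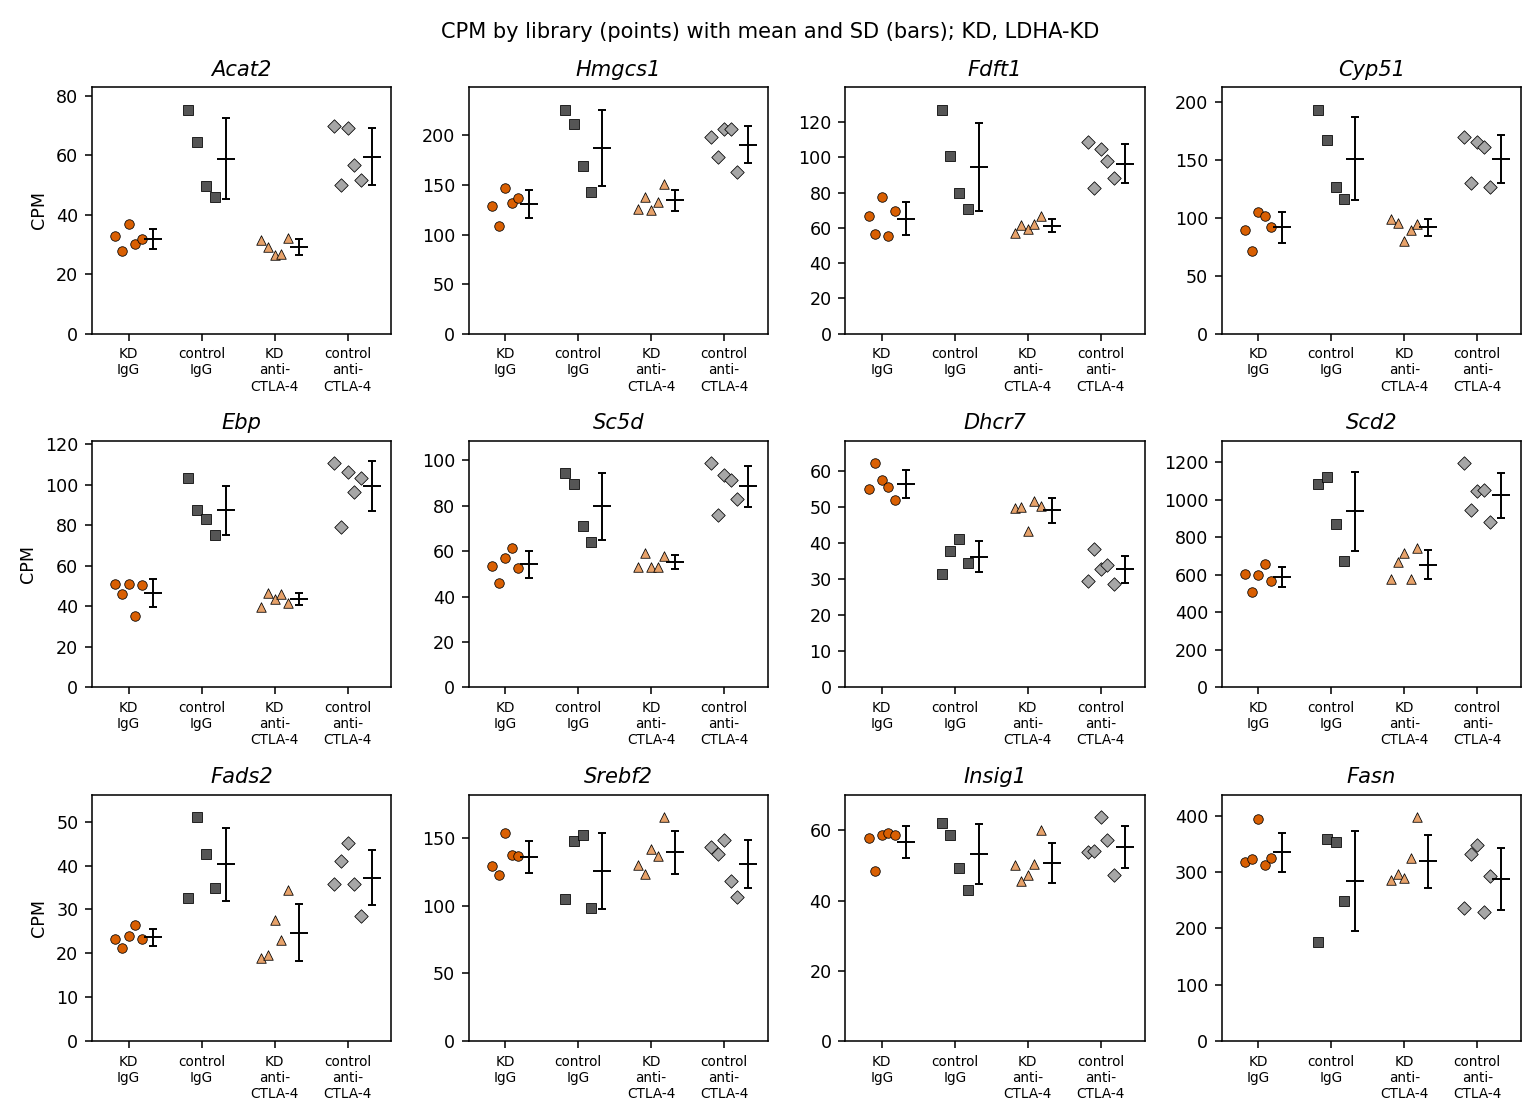
CPM of 12 of the genes in each library (points), with mean and SD beside them, for LDHA-KD and control tumours within each treatment. Acat2, Cyp51, Ebp, Sc5d and Scd2 are lower in every LDHA-KD library than in every control library within a treatment, Dhcr7 is higher, and Srebf2, Insig1 and Fasn overlap.

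The regulators were called in neither comparison. Srebf2, the factor that acts mainly on cholesterol genes (chr15:82147181-82205379, plus strand), had 129, 123, 153, 138 and 137 CPM in LDHA-KD tumours, against 105, 148, 152 and 98.3 CPM in control tumours under IgG. With anti-CTLA-4, Srebf2 had 130.0, 124, 142, 136 and 165 CPM in LDHA-KD tumours, against 143, 138, 149, 118 and 106 CPM in control tumours. With IgG, 2 control libraries lay below all LDHA-KD libraries and the other 2 lay inside their range. For Srebf2 it was, on the log2 scale, 0.11 under IgG (adjusted p = 0.546, SE 0.13) and 0.09 under anti-CTLA-4 (adjusted p = 0.579, SE 0.12), with 95% intervals of -0.16 to 0.38 and -0.17 to 0.35. Srebf1, which acts mainly on fatty acid genes, had 97.6, 94.9, 99.4, 94.6 and 97.5 CPM in LDHA-KD tumours, against 73.0, 101, 109 and 78.0 CPM in control tumours under IgG. With anti-CTLA-4, Srebf1 had 95.5, 80.2, 91.8, 97.7 and 111 CPM in LDHA-KD tumours, against 105, 102, 108, 74.7 and 74.8 CPM in control tumours. The LDHA-KD libraries with IgG lay close together, inside the wider control range. Its log2 fold change was 0.10 under IgG (adjusted p = 0.574, SE 0.13) and 0.03 under anti-CTLA-4 (adjusted p = 0.847, SE 0.12), with intervals of -0.17 to 0.37 and -0.22 to 0.29.

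Scap, the sterol sensor that escorts the factors out of the endoplasmic reticulum, had 40.5, 41.9, 45.7, 42.8 and 43.0 CPM in LDHA-KD tumours, against 33.5, 46.3, 53.2 and 40.0 CPM in control tumours under IgG. Under anti-CTLA-4 Scap had 43.3, 40.4, 45.3, 45.7 and 52.6 CPM in LDHA-KD tumours, against 47.5, 45.4, 51.5, 42.2 and 39.5 CPM in control tumours. The groups overlapped, and the log2 fold change was -0.02 under IgG (adjusted p = 0.929, SE 0.11) and 0.01 under anti-CTLA-4 (adjusted p = 0.953, SE 0.10). Insig1, which retains Scap and is itself a target of the factors, had 57.9, 48.4, 58.7, 59.4 and 58.7 CPM in LDHA-KD tumours, against 62.0, 58.6, 49.4 and 43.1 CPM in control tumours under IgG. With anti-CTLA-4, Insig1 had 50.1, 45.6, 47.4, 50.5 and 60.2 CPM in LDHA-KD tumours, against 53.8, 54.2, 63.8, 57.2 and 47.3 CPM in control tumours. These groups overlapped too, with a log2 fold change of 0.09 under IgG (adjusted p = 0.566, SE 0.11) and -0.12 under anti-CTLA-4 (adjusted p = 0.352, SE 0.10). The intervals of Insig1 were -0.14 to 0.31 under IgG and -0.34 to 0.09 under anti-CTLA-4. Whether its change differed from that of the enzymes called lower was not tested. Transcript levels say nothing of the cleavage that activates the proteins.

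Among the enzymes of fatty acid synthesis, Acss2 was called lower under both treatments and Acly, Acaca and Fasn were called in neither comparison. Acss2, which makes acetyl-CoA from acetate, had -0.25 under IgG (adjusted p = 0.0363, SE 0.09) and -0.37 under anti-CTLA-4 (adjusted p = 0.00189, SE 0.08), with 24.5 to 26.1 CPM in LDHA-KD tumours and 28.6 to 33.5 CPM in control tumours under IgG. The ranges were separate under IgG and overlapped under anti-CTLA-4. Its call under IgG was lost without any of 8 libraries, LDHA-KD IgG replicates 1 to 5 and control IgG replicates 1, 3 and 5, with adjusted p between 0.0515 and 0.124. Acss2 overlaps 5 annotated genes, 3 of them on the opposite strand, and whether the counting used strand is not given in the sources used here. Acly, which makes cytosolic acetyl-CoA from citrate, had -0.06 and -0.08 under IgG and anti-CTLA-4, and Acaca, the carboxylase that makes malonyl-CoA, -0.04 and -0.13, with intervals of -0.25 to 0.17 and -0.33 to 0.06. Fasn, the fatty acid synthase, had 0.24 under IgG (adjusted p = 0.322, SE 0.18) and 0.15 under anti-CTLA-4 (adjusted p = 0.499, SE 0.17), and ranged over 313 to 395 CPM in LDHA-KD tumours and 176 to 359 CPM in control tumours under IgG.

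Elovl6, which lengthens saturated chains (chr3:129532355-129638495, plus strand), was the other gene called higher, under anti-CTLA-4. It had 109.6, 127, 99.7, 117 and 131 CPM in LDHA-KD tumours, against 85.7, 104, 101, 102 and 90.5 CPM in control tumours there, and 124, 111, 151, 128 and 124 CPM in LDHA-KD tumours, against 100.1, 128, 108 and 90.0 CPM in control tumours under IgG. The ranges overlapped in both, and the log2 fold change was 0.26 under IgG (adjusted p = 0.0651, SE 0.11) and 0.28 under anti-CTLA-4 (adjusted p = 0.0348, SE 0.10). The call under anti-CTLA-4 was lost without LDHA-KD anti-CTLA-4 replicate 2 (adjusted p = 0.0743), 4 (0.0588) or 5 (0.0917), control anti-CTLA-4 replicate 1 (0.0975) or 5 (0.0683), or the 4 libraries that lay apart (0.125). Under IgG, Elovl6 passed when control IgG replicate 3 (0.0136) or LDHA-KD IgG replicate 2 (0.0400) was left out.

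Among the desaturases, Scd2 and Fads2 were lower in LDHA-KD tumours and Fads1 was not called. Scd2 encodes a stearoyl-CoA desaturase (chr19:44293674-44306864, plus strand), and per kilobase of exon it had the highest mean level of the 32 genes over all libraries. It had 604, 509, 601, 657 and 564 CPM in LDHA-KD tumours, against 1081, 1123, 872 and 671 CPM in control tumours under IgG. With anti-CTLA-4, Scd2 had 575, 667, 713, 576 and 739 CPM in LDHA-KD tumours, against 1193, 947, 1048, 1052 and 878 CPM in control tumours. The highest LDHA-KD library lay just below the lowest control library, replicate 5, under IgG, and the groups were farther apart under anti-CTLA-4. For Scd2 the log2 fold change was -0.67 under IgG (adjusted p = 0.000570, SE 0.13) and -0.65 under anti-CTLA-4 (adjusted p = 0.000463, SE 0.12). Fads2, the first desaturase of the polyunsaturated pathway (chr19:10062765-10101746, minus strand), had 23.2, 21.1, 24, 26.5 and 23.2 CPM in LDHA-KD tumours, against 32.6, 51.0, 42.7 and 34.8 CPM in control tumours under IgG. With anti-CTLA-4, Fads2 had 18.8, 19.7, 27.6, 23.0 and 34.5 CPM in LDHA-KD tumours, against 35.8, 41.0, 45.1, 35.7 and 28.4 CPM in control tumours. LDHA-KD replicate 5 lay above control replicate 5 under anti-CTLA-4, and the groups did not overlap under IgG. Its log2 fold change was -0.77 under IgG (adjusted p = 0.00137, SE 0.17) and -0.59 under anti-CTLA-4 (adjusted p = 0.00581, SE 0.16). Fads1, which acts later in that pathway, had -0.04 and -0.10, with intervals of -0.19 to 0.11 and -0.24 to 0.05.

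Scd1, the stearoyl-CoA desaturase of adipose tissue and liver (chr19:44394455-44407879, minus strand), was called lower under anti-CTLA-4, and the call rested on 1 control library. Scd1 had 151, 134, 118, 195 and 203 CPM in LDHA-KD tumours, against 169, 256, 469, 125 and 1128 CPM in control tumours under anti-CTLA-4, and 106, 81.9, 240.2, 126 and 169 CPM in LDHA-KD tumours, against 119.7, 163, 97.5 and 236 CPM in control tumours under IgG. Control anti-CTLA-4 replicate 5 stood far above all others and replicate 3 was next, while 2 of the other 3 control libraries were inside the LDHA-KD range. The log2 fold change was -0.09 under IgG (adjusted p = 0.906, SE 0.48) and -1.42 under anti-CTLA-4 (adjusted p = 0.0191, SE 0.46). Without control anti-CTLA-4 replicate 5 it was -0.66 (adjusted p = 0.148), without the 4 libraries that lay apart -0.19 (0.738), and with limma voom -0.99 (0.0811). Its paralogs Scd3 and Scd4, which lie beside it, were called in neither comparison.

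Adipocyte genes were highest in the same libraries. The sum of 7 adipocyte markers, Adipoq, Plin1, Cidec, Cidea, Lep, Retn and Cfd, was 68.0, 29.1, 24, 82.8 and 92.0 CPM in LDHA-KD tumours with anti-CTLA-4, against 52.9, 79.7, 165, 27.8 and 374 CPM in the control tumours so treated. It was 31.0 to 62.0 CPM in LDHA-KD and 27.7 to 90.4 CPM in control tumours with IgG. Within the LDHA-KD IgG, LDHA-KD anti-CTLA-4 and control anti-CTLA-4 groups, Scd1 and the adipocyte sum put all 5 libraries in the same order, and among the 4 control libraries with IgG 2 had the same rank. Of the 7 markers 6 were tested, of which 0 were called under IgG and 1 was called lower under anti-CTLA-4. The sum of 6 milk genes, markers of the lactating mammary gland, was also highest in control anti-CTLA-4 replicate 5. It was 70.0, 8.61, 19.2, 81.9 and 18 CPM in LDHA-KD tumours, against 40.7, 8.55, 46.1, 1.39 and 103 CPM in control tumours under anti-CTLA-4. Control replicates 5 and 3 were the highest of their group, and LDHA-KD replicates 4 and 1, with 195 and 151 CPM of Scd1, lay between them. Under IgG the milk sum was 6.08 to 26.6 CPM in LDHA-KD and 2.48 to 10.3 CPM in control tumours. The sum of the 6 counted keratinocyte and sebaceous gland genes was 1.78 to 14.7 CPM over the 19 libraries. Of 5 milk genes tested 1 was called higher under IgG and 0 under anti-CTLA-4, and of 3 keratinocyte and sebaceous gland genes tested 2 were called lower under each. The comparisons with adipocyte and milk genes were chosen after the values were seen, and the part of adipose or mammary gland tissue in the Scd1 result was not tested.

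**Figure D4:**
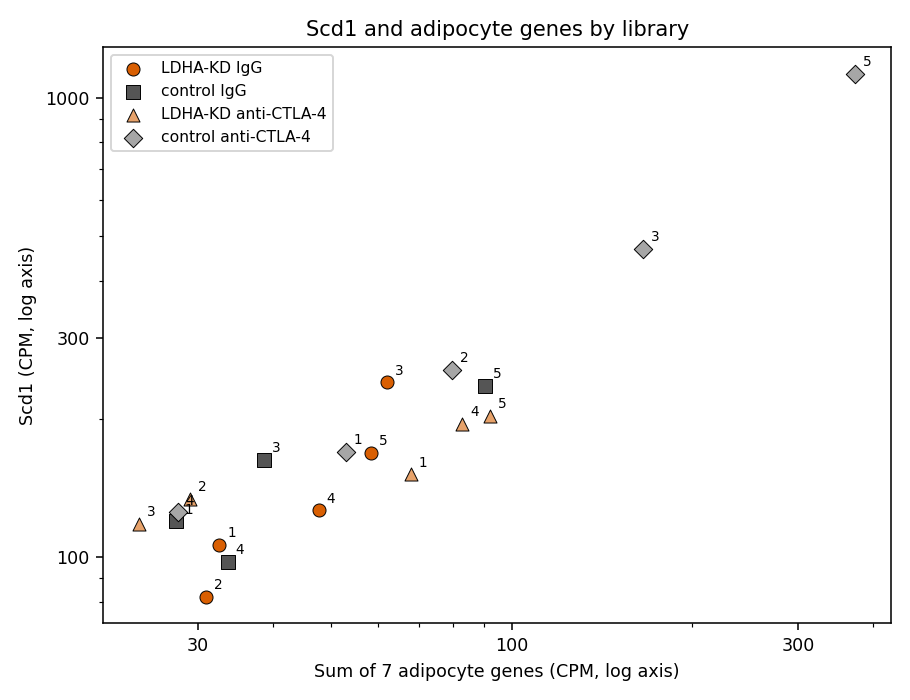
Scd1 against the summed level of 7 adipocyte genes in each of the 19 libraries (CPM, both axes logarithmic), with symbols for the groups and the replicate number beside each point. Control anti-CTLA-4 replicates 5 and 3 stand at the upper right, at 1128 and 469 CPM of Scd1.

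Within a group, the same library was often the lowest or the highest for many of the cholesterol genes. Of the 18 genes of the mevalonate and sterol arms, LDHA-KD IgG replicate 2 was the lowest of its group for 14 and replicate 3 the highest for 14. Among control tumours with IgG, replicate 5 was the lowest for 16 and replicate 1 the highest for 10. LDHA-KD anti-CTLA-4 replicate 5 was the highest of its group for 12, and control anti-CTLA-4 replicate 5 was the lowest of its group for 11. The shares of all genes for which these libraries were lowest or highest were not computed. These counts therefore have no background here, and a shift of a whole library was not tested. The mean log2 CPM of the 18 genes ran from 5.20 to 5.68 in LDHA-KD and from 5.36 to 5.90 in control tumours under IgG, and from 5.33 to 5.55 in LDHA-KD against 5.54 to 5.94 in control tumours under anti-CTLA-4. These means overlapped in both treatments, and the overlap under anti-CTLA-4 was between LDHA-KD replicate 5 and control replicate 5.

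**Figure D5:**
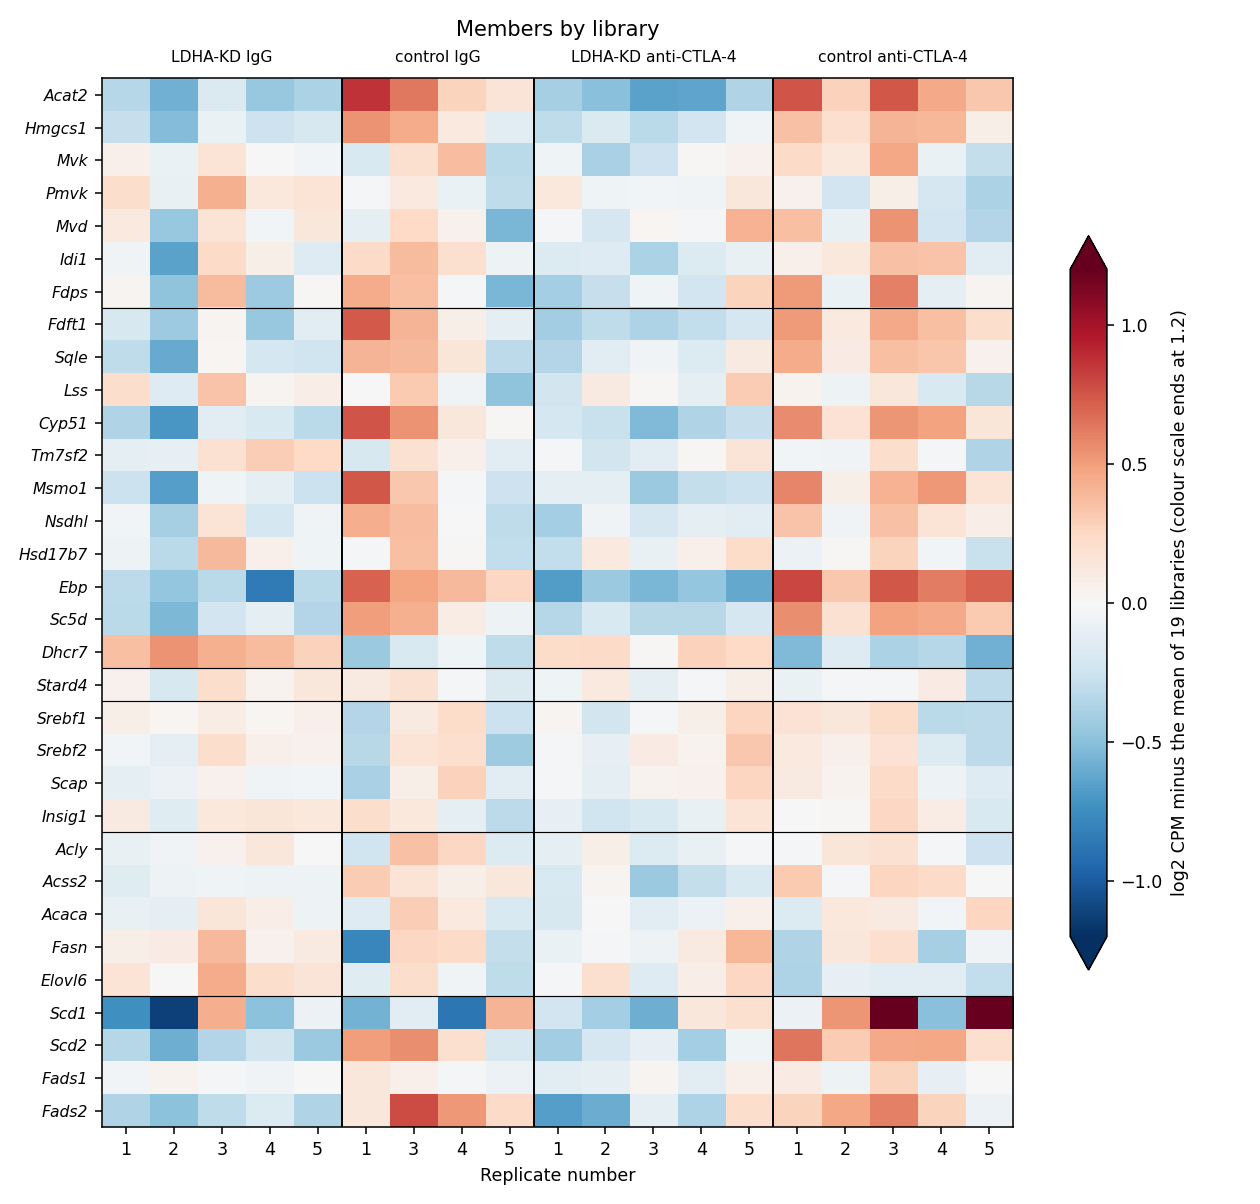
Log2 CPM of each of the 32 genes (rows, by role) in each of the 19 libraries (columns, numbered by replicate), minus the gene's mean over all libraries, with the colour scale ending at 1.2. Acat2, Ebp, Sc5d and Cyp51 are blue in the LDHA-KD columns and mostly red in the control columns, Dhcr7 is the reverse, and LDHA-KD IgG replicate 2 is the lowest of its group for 14 of the 18 cholesterol genes.

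For anti-CTLA-4 against IgG, none of the 32 genes was called by edgeR, DESeq2 or limma voom, in LDHA-KD tumours, in control tumours or in the interaction, the difference between these 2 effects (LDHA-KD minus control). Over all genes edgeR called 0% in each of these comparisons, and DESeq2 called 53, 11 and 0 genes. At an unadjusted p under 0.05, each of the 3 tools had 1 of the 32 genes in LDHA-KD tumours, 1 in control tumours and 0 in the interaction, where edgeR had 11.9%, 8.03% and 2.48% of all genes. Dhcr7 was that gene in LDHA-KD tumours by edgeR, at -0.20 on the log2 scale for anti-CTLA-4 over IgG (adjusted p = 0.366, SE 0.08). There all its anti-CTLA-4 libraries lay below all its IgG libraries, as for 0.567% of all genes. The groups nearly touched, with the highest anti-CTLA-4 library at 51.68 CPM and the lowest IgG library at 51.74 CPM. Scd1 was that gene in control tumours by edgeR, at 1.48 (adjusted p = 0.601, SE 0.50), with the replicate 5 value described above. In the interaction, Scd1 had -1.33 (95% interval -2.72 to 0.06) and Ebp -0.29 (-0.62 to 0.04). The intervals of the interaction for Acat2, -0.53 to 0.25, and for Dhcr7, -0.31 to 0.21, include 0.

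Around the 32 genes, lists of neighbouring pathways were counted in the same fit. Over all genes tested, as given above, 34.3% were called under IgG and 40.0% under anti-CTLA-4. The isoprenoid branch, fed by the mevalonate arm, had 3 of 10 genes called lower and 1 higher under each treatment, so that the 40% called were near the share of all genes. Nus1, a subunit of the prenyltransferase for dolichol, had -0.34 under IgG (adjusted p = 0.000655, SE 0.07) and -0.35 under anti-CTLA-4 (adjusted p = 0.000295, SE 0.06), and Rce1, a protease of prenylated proteins, -0.46 under IgG (adjusted p = 0.00525, SE 0.12) and -0.45 under anti-CTLA-4 (adjusted p = 0.00332, SE 0.11). Pdss2, which makes the side chain of ubiquinone, had -0.36 and -0.24, and Dhdds, the partner of Nus1, was the gene called higher, with 0.19 and 0.18. Of 6 genes that process or degrade the sterol regulatory factors and their anchors, 0 were called under IgG, with 1 at an unadjusted p under 0.05, and 2 were called lower under anti-CTLA-4 (33.3%, under the share of all genes). These were Insig2 at -0.39 and Vcp at -0.14, named after their values were seen.

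Genes of sterol efflux and of the oxysterol receptors were called higher in 4 of 10 cases under each treatment and lower in 0. The 40% called were near the share of all genes, of which 16.8% were called higher under IgG and 20.2% under anti-CTLA-4. Apoe, the lipid carrier, had 1.29 under IgG (adjusted p = 6.12e-05, SE 0.20) and 1 under anti-CTLA-4 (adjusted p = 0.000276, SE 0.18). Cyp27a1, the sterol hydroxylase of mitochondria, had 1.31 under IgG (adjusted p = 0.000599, SE 0.26) and 0.69 under anti-CTLA-4 (adjusted p = 0.0243, SE 0.23), and Nr1h2, an oxysterol receptor, 0.39 under IgG (adjusted p = 0.0118, SE 0.11) and 0.28 under anti-CTLA-4 (adjusted p = 0.0420, SE 0.11). Of 7 genes of sterol esters and lysosomal sterol, 3 were called higher and 1 lower under IgG, and 3 higher and 0 lower under anti-CTLA-4, which is 57.1% and 42.9% called. Nceh1, a hydrolase of cholesterol esters, had 0.57 under IgG (adjusted p = 1.18e-06, SE 0.06) and 0.46 under anti-CTLA-4 (adjusted p = 5.63e-06, SE 0.06), and Lipa, the lysosomal lipase, 0.38 under IgG (adjusted p = 0.00343, SE 0.09) and 0.36 under anti-CTLA-4 (adjusted p = 0.00290, SE 0.09). Osbp, an oxysterol-binding protein, was the gene called lower under IgG, at -0.27. Macrophages express Apoe, Cyp27a1 and Lipa, and their marker sums were higher in the same tumours, as given above, and the part of that shift in these values was not tested.

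Of 15 other genes of fatty acid synthesis, 3 were called lower and 2 higher under IgG, and 6 lower and 1 higher under anti-CTLA-4, and the 33.3% and 46.7% called were near the shares of all genes. Me1, the malic enzyme that supplies NADPH, had -0.83 under IgG (adjusted p = 7.09e-05, SE 0.13) and -0.90 under anti-CTLA-4 (adjusted p = 1.71e-05, SE 0.12), and Mid1ip1, an activator of acetyl-CoA carboxylase, -0.56 under IgG (adjusted p = 0.000458, SE 0.11) and -0.66 under anti-CTLA-4 (adjusted p = 5.49e-05, SE 0.10). Elovl7, an elongase, had -0.36 and -0.45. Glycerolipid synthesis had 2 of 10 genes higher under each treatment, the acyltransferases Agpat2 at 0.54 and 0.28 and Agpat3 at 0.42 and 0.36, with 0 lower under IgG and 1 under anti-CTLA-4. The 20% and 30% called were below the shares of all genes. Of 12 genes of fatty acid oxidation 10 were tested, of which 3 were called lower under IgG and 2 under anti-CTLA-4 (30% and 20%, below the shares of all genes). Acadl, an acyl-CoA dehydrogenase, had -0.51 and -0.66, Hadha, a subunit of the mitochondrial trifunctional protein, -0.24 and -0.29, and Cpt1a, which was called under IgG alone, -0.39 and -0.15. Among 7 genes of fatty acid uptake, 3 were called higher under IgG, and 2 higher and 1 lower under anti-CTLA-4 (42.9% called under each). Slc27a3, of the fatty acid transport protein family, had 1.38 under IgG (adjusted p = 5.58e-05, SE 0.21) and 1.62 under anti-CTLA-4 (adjusted p = 3.8e-06, SE 0.19), Slc27a4 0.32 and 0.47, and Slc27a1, called under IgG alone, 0.34 and 0.10.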

How the data were processed

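RNA of 19 tumour samples was sequenced with a stranded TruSeq kit, per the labels' protocols. The deposited table holds raw read counts per gene, made with HTSeq 0.5.3, with Picard 1.124 and the build mm10 also named, per the submitters' processing notes. Which aligner, annotation release and strand setting were used is not given in the sources used here. Reads outside genes were 8.42 to 13.8% and reads not unique 10.2 to 14.1% of a library, and both stayed out of library sizes. Each of 171 pairs of libraries differed beyond sampling noise, with a chi-square per gene of at least 5.21.

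Groups came from the sample labels. Genes were filtered with filterByExpr, scaled with TMM and tested with edgeR 4.0.16 in R 4.3.3 by a quasi-likelihood F test on all 19 samples with 1 mean per group, adjusted over 16763 genes by the Benjamini-Hochberg method at 0.05. The scripts were tested on simulated data, whose pass criterion was changed after its first run. A required share of true changes found was dropped, which loosened the criterion. It then covered bias and false calls only, not the power to find changes. Intervals are 95% intervals of that fit. A floor of 3 counts equals 0.0693 to 0.0944 CPM and covers counting error only. Alternatives were RLE factors, library totals, no filter, DESeq2 1.42.0, voom of limma 3.58.1, fits of the compared groups, a replicate block and left-out libraries. Named genes were every member, with library values for the regulators and for up to 6 called members of largest change in each direction, and up to 3 called genes of smallest p per pathway list. Members and lists were chosen with earlier results of these data known.

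The labels do not say what the replicate numbers mark, and the main fit did not pair samples by them. Exon lengths and coordinates came from GENCODE M21 and promoters from RefSeq on GRCm38.p6. Of the 32 genes, 17 overlap another annotated gene, 11 of them one on the opposite strand.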

Additional observations from a re-analysis of the deposited data

Results flagged for a closer look

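In each group of 4 or 5 libraries, the highest and the lowest library for each gene were held against Dixon's criterion, which sets the gap to the nearest library against the whole range. Of 128 pairs of a gene and a group, 5 met it, and chance gives about 1 in 20. LDHA-KD anti-CTLA-4 replicate 3 was low for Idi1, at 13.9 CPM with the nearest library at 16.2 CPM, and for Dhcr7, at 43.1 CPM with the nearest at 49.8 CPM. LDHA-KD IgG replicate 2 was low for Insig1, at 48.4 CPM with the nearest at 57.9 CPM. LDHA-KD IgG replicate 1 was low for Acss2, at 24.5 CPM with the nearest at 26 CPM. LDHA-KD IgG replicate 3 was high for Fasn, at 395 CPM with the nearest at 325 CPM, and this was the 1 high value of the 5.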

How the results depend on the processing

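For LDHA-KD against control, RLE factors and DESeq2 gave the same calls for each of the 32 genes, and no called gene changed sign under any alternative run. Under IgG, genes called higher were 3 with library totals alone and 1 to 3 with 1 library left out, while genes called lower were 8 to 11 and all calls 9 to 12 with 1 library left out. Under anti-CTLA-4, genes called higher were 1 without the 4 libraries that lay apart and 1 to 2 with 1 library left out, while genes called lower were 11 to 14 and all calls 12 to 16. Without those 4 libraries 10 genes were called lower there. Library totals moved the median of all genes to 0.07 under IgG and 0.10 under anti-CTLA-4, ended the calls of Acss2 under IgG and of Idi1, Sqle and Nsdhl under anti-CTLA-4, and added calls of Pmvk and Elovl6 under IgG and of Pmvk under anti-CTLA-4, where 11 genes were then lower and 3 higher. Without the filter Acss2 lost its call under IgG and Idi1 under anti-CTLA-4, and with the IgG groups alone Msmo1 did (adjusted p = 0.0504). The causes were not tested. With the replicate block, 13 genes were called under IgG, 2 higher and 11 lower, with Pmvk added at 0.27 (adjusted p = 0.0234), 16 under anti-CTLA-4, 2 higher and 14 lower, and 0 in the treatment comparisons and the interaction. After each gene's group mean was subtracted from its log2 CPM, same-numbered libraries of different groups had correlations of -0.21 to 0.39. Of 18 such pairs, 9 were over 0.1. Differently numbered libraries were not correlated for reference, so these values cannot tell whether the numbers mark a shared batch. The treatment comparisons and the interaction had 0 calls among the 32 genes under each alternative run.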
